A study of Mus musculus with 1 sample.

Results

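A set of 10 genes of the WNT and R-spondin pathway was followed across the cell types of the fetal mouse testis. They were taken by name from the 22631 features of the matrix, as a list drawn up with earlier results of these data known, and all 10 were present as a single row. They are the ligands *Wnt4*, *Wnt5a* and *Wnt6*, the R-spondins *Rspo1* and *Rspo3*, the secreted inhibitor *Sfrp1*, the receptor-removing ligase *Znrf3*, the target genes *Axin2* and *Lef1*, and *Ctnnb1*, which encodes beta-catenin. The study deleted the nuclear receptor gene *Nr5a1* in Sertoli cells (SCs), the supporting cells of the testis cords, and sequenced RNA of single cells from control and mutant testes. The control library used here came from a pool of 12 testes. Its label calls the genotype wild type and the stage E14.5, whereas the text of the study also names E13.5 and describes control fetuses as *Nr5a1* L2/L2, with loxP-flanked alleles, without the Cre transgene, on a mixed C57BL/6 and 129/SvPass background. The mutant library was not used here, so the comparisons are between cell types of 1 pooled sample, with no replicate and no test.

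WNT proteins are secreted, lipid-modified ligands that bind Frizzled receptors with the co-receptors LRP5 and LRP6, and in the canonical branch this keeps beta-catenin from destruction so that it can act with TCF/LEF factors in the nucleus. R-spondins bind LGR receptors and clear the ligases ZNRF3 and RNF43 from the membrane, which leaves more Frizzled receptor at the cell surface and strengthens the WNT signal. In the gonad, *Wnt4* and *Rspo1* are best known for their part in ovarian differentiation, where they act against the testis program, while *Wnt5a* acts mostly through receptors that do not use beta-catenin.

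The 3 ligand and R-spondin genes with a matched promoter window, which had their highest levels in different classes, are shown with the sequence just upstream of their start, taken from RefSeq on GRCm38.p6. Promoter windows of 250 bases before to 50 bases after the start were matched for 6 of the 10 genes (*Wnt4*, *Wnt6*, *Rspo1*, *Axin2*, *Lef1* and *Ctnnb1*), with 10 windows in all because *Lef1* and *Ctnnb1* have several starts. The stretches below end before the first annotated transcript of the gene, all are on the plus strand, and CpG dinucleotides are in capitals. They belong to *Wnt6* (chr1:74771642-74771891), *Wnt4* (chr4:137277385-137277488) and *Rspo1* (chr4:124986180-124986429).
Wnt6: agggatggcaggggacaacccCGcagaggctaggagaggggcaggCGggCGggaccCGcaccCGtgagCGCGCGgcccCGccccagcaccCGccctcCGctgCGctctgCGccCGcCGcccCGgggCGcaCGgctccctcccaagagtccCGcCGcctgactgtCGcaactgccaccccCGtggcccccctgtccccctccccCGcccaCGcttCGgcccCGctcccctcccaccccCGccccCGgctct
Wnt4: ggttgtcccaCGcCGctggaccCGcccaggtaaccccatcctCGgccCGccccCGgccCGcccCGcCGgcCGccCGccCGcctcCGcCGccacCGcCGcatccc
Rspo1: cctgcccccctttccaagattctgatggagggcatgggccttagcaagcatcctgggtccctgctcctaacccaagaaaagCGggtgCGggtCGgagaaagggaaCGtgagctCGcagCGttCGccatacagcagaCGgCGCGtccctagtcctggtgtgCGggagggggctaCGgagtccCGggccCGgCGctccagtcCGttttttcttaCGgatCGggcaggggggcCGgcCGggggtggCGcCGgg
The printed stretch of *Wnt6* holds 28 CpG in 250 bases, that of *Wnt4* 16 in 104 bases and that of *Rspo1* 22 in 250 bases. Over the full windows the CpG counts were 31 for *Wnt6*, 51 for *Wnt4* and 29 for *Rspo1*, against a median of 7 over the 32851 windows of the table.

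Short motifs of 4 kinds were searched on both strands of the windows. The TCF/LEF motif ATCAAAG is in 3.73% of all windows and in none of the 10 windows of these genes, the NR5A1 motif AAGGTCA in 4.72% of all and none of the 10, and the SOX motif ACAATGG in 3.66% of all and none of the 10. The overlapping TCF/LEF form TCAAAGG is in 4.77% of all windows and in 1 of the 10, the most downstream start of *Lef1*. That window lies inside the gene as GENCODE draws it, and the stretch around the motif (chr3:131156084-131156150, in no annotated exon of *Lef1*) is shown with the motif in capitals.
Lef1: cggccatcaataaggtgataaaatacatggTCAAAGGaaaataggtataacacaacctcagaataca
A match, or its absence, describes the letters of these windows only.

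After filtering, 3805 cells with 54256608 unique molecular identifiers (UMIs, 1 for each captured molecule) were left, with a median of 12060 UMIs per cell. They formed 16 clusters, which were named from marker lists that contain no WNT pathway gene, and the pathway genes were also kept out of the genes used to cluster. Interstitial-like cells, the stromal progenitors between the cords, were the largest class with 1436 cells, followed by Sertoli-like (845), peritubular myoid-like (527), Leydig-like (309), germ-like (243), coelomic epithelium-like (151), perivascular-like (104), endothelial-like (42), immune-like (37), rete testis-like (31) and erythroid-like (17) cells. Every named class had all of its own markers above 0 except the rete testis-like one, where 1 of 5, *Cdh16*, was at 0. Sertoli-like cells also had all germ, Leydig and interstitial markers above 0, so a value above 0 does not bear out a name. The names rest on the mean log2 ratio of the markers to the other clusters, which was 1.03 to 7.27 in the named clusters. A cluster of 63 cells, with a median of 3181 UMIs, stayed without a name. Germ-like cells were the deepest, with a median of 35920 UMIs, and interstitial-like cells the shallowest of the named classes, with 9234. The level of a gene in a class is the sum of its UMIs scaled to 1000000 UMIs of that class (CPM). Because tags were read at the 3′ end of the RNA, CPM is used here to compare 1 gene between classes and not to compare genes.

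**Figure D1:**
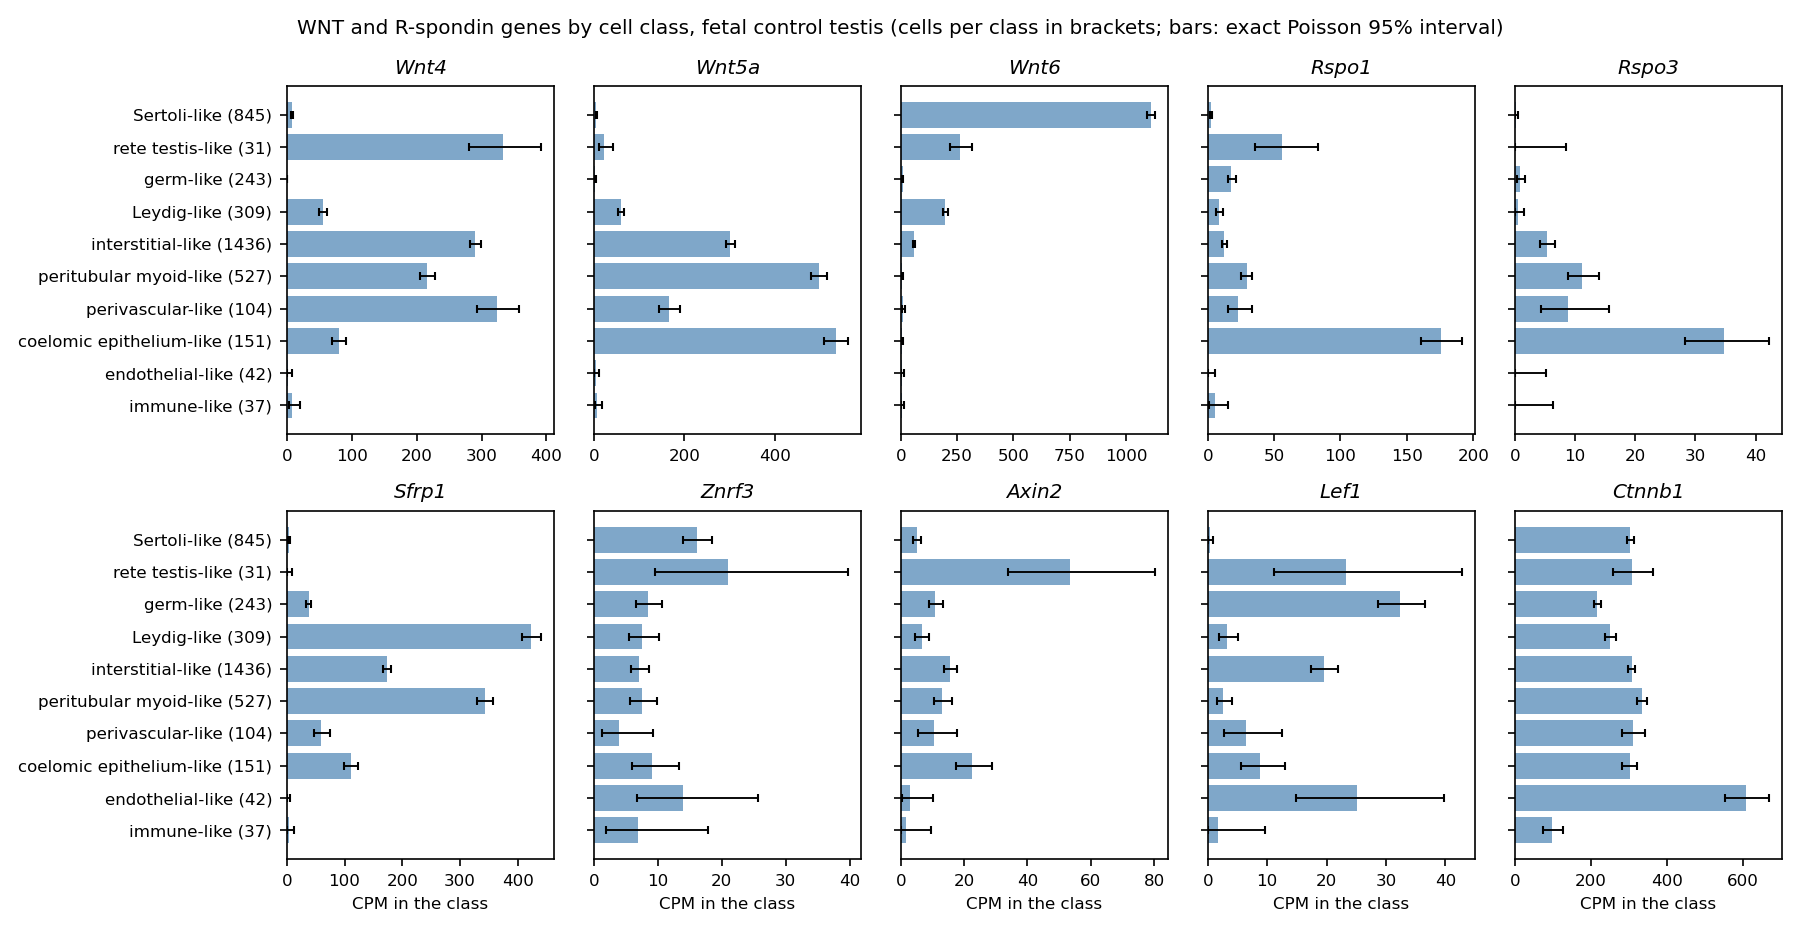
Level of each of the 10 genes in the 10 named classes of at least 30 cells of the control library. Bars give CPM on a linear axis that starts at 0 and differs between panels, lines the exact Poisson 95% interval, which covers counting error only. *Wnt6* stands high in Sertoli-like cells (1111 CPM), and *Wnt4* and *Wnt5a* are each spread over several classes. *Rspo1* and *Rspo3* peak in coelomic epithelium-like cells, and *Ctnnb1* is present in all classes.

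*Wnt6* (ENSMUSG00000033227; chromosome 1, 74771892 to 74785322) was the WNT ligand gene of the Sertoli-like cells, which held 85.1% of its 16649 UMIs. Its level there was 1111 CPM (exact Poisson 95% interval 1093 to 1130). It was 263 CPM (217 to 316) in rete testis-like, 197 CPM (186 to 209) in Leydig-like and 59.0 CPM (55.0 to 63.1) in interstitial-like cells. These 4 levels were apart from one another by their intervals. In the other 6 classes of at least 30 cells *Wnt6* stood between 5.21 and 12.0 CPM. Their intervals overlapped from each class to the next. The erythroid-like class, too small for this order, had 65.1 CPM (37.2 to 106), from 16 UMIs in 4 of 17 cells. The Sertoli marker list summed to 549.5 CPM there, and the part of free RNA in its *Wnt6* level was not tested. The Sertoli-like level was 4.16 times the next one with 5 CPM added to both. That next level, in rete testis-like cells, was uneven. It was 197 CPM in the 24 cells with a UMI of the rete marker *Pax8* and 499 CPM in the 7 without. The Sertoli marker list summed to 2329 CPM in the rete testis-like class, against 9516 CPM in Sertoli-like cells. The part of Sertoli RNA or cells in the rete testis-like level was not tested.

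Nearly every Sertoli-like cell carried *Wnt6*. A UMI was seen in 838 of 845 cells (99.2%, exact 95% interval 98.3 to 99.7%). These cells carried 16 UMIs at the median and at most 56. With each cell thinned to 5000 UMIs, which left out 13 Sertoli-like cells, the share was 98.8%. In immune-like cells, which come from blood and were taken as a class that should lack the gene, it was 2.43% at 5000 UMIs (median depth 14980 UMIs in immune-like and 14340 in Sertoli-like cells). That background rests on 3 UMIs in 3 of 37 cells. In erythroid-like cells, also of the blood, the share was 20.3%, with a UMI read in 4 of 17 cells. Shares at 5000 UMIs of 2.22% in coelomic epithelium-like and 1.90% in endothelial-like cells were at or below the immune-like share. Those of 2.80% in germ-like and 3.49% in peritubular myoid-like cells were close to it. The highest count in a germ-like cell was 32 of the 72 *Wnt6* UMIs of that class. The unnamed cluster, whose markers were nearest to the Sertoli list, had 936 CPM (820 to 1065) of *Wnt6*.

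The Leydig-like cells, the androgen-producing cells of the interstitium, were not uniform for *Wnt6*. A cluster of 183 cells, led by *Nppc* and *Vsnl1*, had 355 CPM (332 to 380) and the other, of 126 cells with the highest levels of steroidogenic genes, 70.7 CPM (61.7 to 80.6), with a UMI in 89.1% and 59.5% of cells. The Leydig list of 8 markers summed to 10300 CPM in the first and 39270 CPM in the second. In the same order, the Sertoli list of 11 markers summed to 69.4 and 88.2 CPM and the interstitial list of 8 to 805 and 134 CPM. The part of free RNA or of other cell types in the difference between these clusters was not tested. The interstitial-like clusters of 863 and 202 cells, the second of which was led by histone genes of dividing cells, had 72.3 CPM (66.6 to 78.3) and 60.1 CPM (51.2 to 70.0), against 27.1 CPM (20.8 to 34.6) in that of 285 cells and 12.3 CPM (5.89 to 22.6) in that of 86 cells. *Wnt6* was thus above the level of 5.21 CPM of immune-like cells in part of the interstitium, by intervals that do not overlap in the first 3 of these 4 clusters. The erythroid-like interval (37.2 to 106 CPM) overlapped those of the clusters of 863 and 202 cells. It lay above those of the clusters of 285 and 86 cells. The Sertoli list summed to 96.7, 64.9, 99.8 and 142 CPM in the 4 clusters, in the same order, with up to 3 of 11 markers at 0. The part of free RNA in these *Wnt6* levels was not tested.

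*Wnt4* (ENSMUSG00000036856; chromosome 4, 137277489 to 137299726) was mostly found outside the Sertoli-like cells, and interstitial-like cells held 60.4% of its 6813 UMIs. Its level was 333 CPM (281 to 392) in rete testis-like, 325 CPM (294 to 358) in perivascular-like and 290.3 CPM (282 to 299) in interstitial-like cells, and each interval overlapped the next. At a clustering resolution of 0.4 the rete testis-like level stood above the perivascular-like one by a log2 ratio of 0.90, with 58 perivascular-like cells in place of 104. Below them came peritubular myoid-like cells, the contractile cells around the cords, with 216 CPM (206 to 228), coelomic epithelium-like cells, the surface layer of the gonad, with 79.6 CPM (69.6 to 90.7), and Leydig-like cells with 55.4 CPM (49.4 to 61.9), each apart from its neighbours. In Sertoli-like cells it was 8.15 CPM (6.66 to 9.88), which could not be told apart from 8.69 CPM (2.82 to 20.3) in immune-like cells. Germ-like cells had 2 UMIs of *Wnt4* among 8455418, or 0.237 CPM (0.0287 to 0.854).

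The share of cells with a *Wnt4* UMI was 75.5% (73.2 to 77.7%) in interstitial-like and 8.17% (6.41 to 10.2%) in Sertoli-like cells. At 5000 UMIs per cell, with 72 interstitial-like and 13 Sertoli-like cells left out, the shares were 62.5% and 3.41%, and that of immune-like cells 3.18%. The Sertoli-like share was close to that of immune-like cells, which rests on 5 UMIs in 2 of 37 cells and is a weak background. Germ-like cells stood lower at 0.0976%, and their CPM interval was apart from that of Sertoli-like cells. All 69 Sertoli-like cells with a *Wnt4* UMI also had a *Wnt6* UMI, as did 838 of 845 Sertoli-like cells in all. The interstitial list of 8 markers summed to 52.1 CPM in Sertoli-like, 19.7 CPM in germ-like and 570 CPM in immune-like cells, with none at 0. The part of free RNA in these low shares was not tested.

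Within the interstitium *Wnt4* varied by several fold. The small cluster of 86 cells, with *Kcnk2* and *Pde10a* among its leading genes, reached 815 CPM (754 to 880), the highest of the 16 clusters, with a UMI in 94.2% of its cells. The cluster of 285 cells had 362 CPM (339 to 388), that of 863 cells 245 CPM (235 to 256) and the dividing one 207 CPM (190.3 to 225). These intervals were apart for all 4 interstitial-like clusters. The cluster of 86 cells had all 8 interstitial markers (3119 CPM in sum), none of them among its 10 leading genes, where *Emcn* of the endothelial list stood. That list summed to 288.5 CPM there, with 5 of 8 markers at 0, against 3894 CPM in endothelial-like cells.

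*Wnt5a* (ENSMUSG00000021994; chromosome 14, 28504750 to 28527448) was highest at the surface of the gonad and in the cells around the cords. Interstitial-like cells held the most of its UMIs, 43.2%. The highest levels were 535 CPM (508 to 562) in coelomic epithelium-like and 497 CPM (481 to 514) in peritubular myoid-like cells, with overlapping intervals. Interstitial-like cells had 302 CPM (293 to 311), perivascular-like 166 CPM (144 to 190.0), Leydig-like 60.5 CPM (54.3 to 67.3) and rete testis-like cells 23.3 CPM (11.2 to 42.8), all apart. Sertoli-like cells had 5.57 CPM (4.35 to 7.02), within the range of 3.31 to 6.95 CPM of germ-like, endothelial-like and immune-like cells. At 5000 UMIs a *Wnt5a* UMI was expected in 86.6% of coelomic epithelium-like, 85.5% of peritubular myoid-like and 2.64% of Sertoli-like cells, against 2.60% of immune-like cells. The immune-like share rests on 4 UMIs in 2 of 37 cells, a weak background. The rete testis-like cells differed here from the other *Wnt4*-rich classes, as they had high *Wnt4* and little *Wnt5a*.

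*Wnt4* and *Wnt5a* were read together in most interstitial-like and peritubular myoid-like cells, where each gene, counted separately, was also seen in most cells. Of the 1436 interstitial-like cells, 925 (64.4%) had UMIs of both, 159 of *Wnt4* alone, 273 of *Wnt5a* alone and 79 of neither. In peritubular myoid-like cells 68.1% had both, and in coelomic epithelium-like cells 43.7% had both and 52.3% *Wnt5a* alone. In Leydig-like cells 76 of 309 had both, 78 *Wnt4* alone, 68 *Wnt5a* alone and 87 neither. Among the interstitial-like clusters, the one with the highest *Wnt4* was the lowest for *Wnt5a*, with 217 CPM (187 to 252), whereas the cluster of 285 cells had the highest *Wnt5a*, 453 CPM (427 to 481). *Wnt4* and *Wnt6* were seen together in 12 of 31 rete testis-like cells, in 118 of 309 Leydig-like cells (38.2%) and in 350 of 1436 interstitial-like cells (24.4%). Counted separately and in the same order, *Wnt4* was seen in 20, 154 and 1084 cells and *Wnt6* in 21, 238 and 475. Whether they met more often than these separate counts imply was not tested. All these counts and shares are as read, and a UMI missed at this depth takes a cell out of the count of both.

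**Figure D2:**
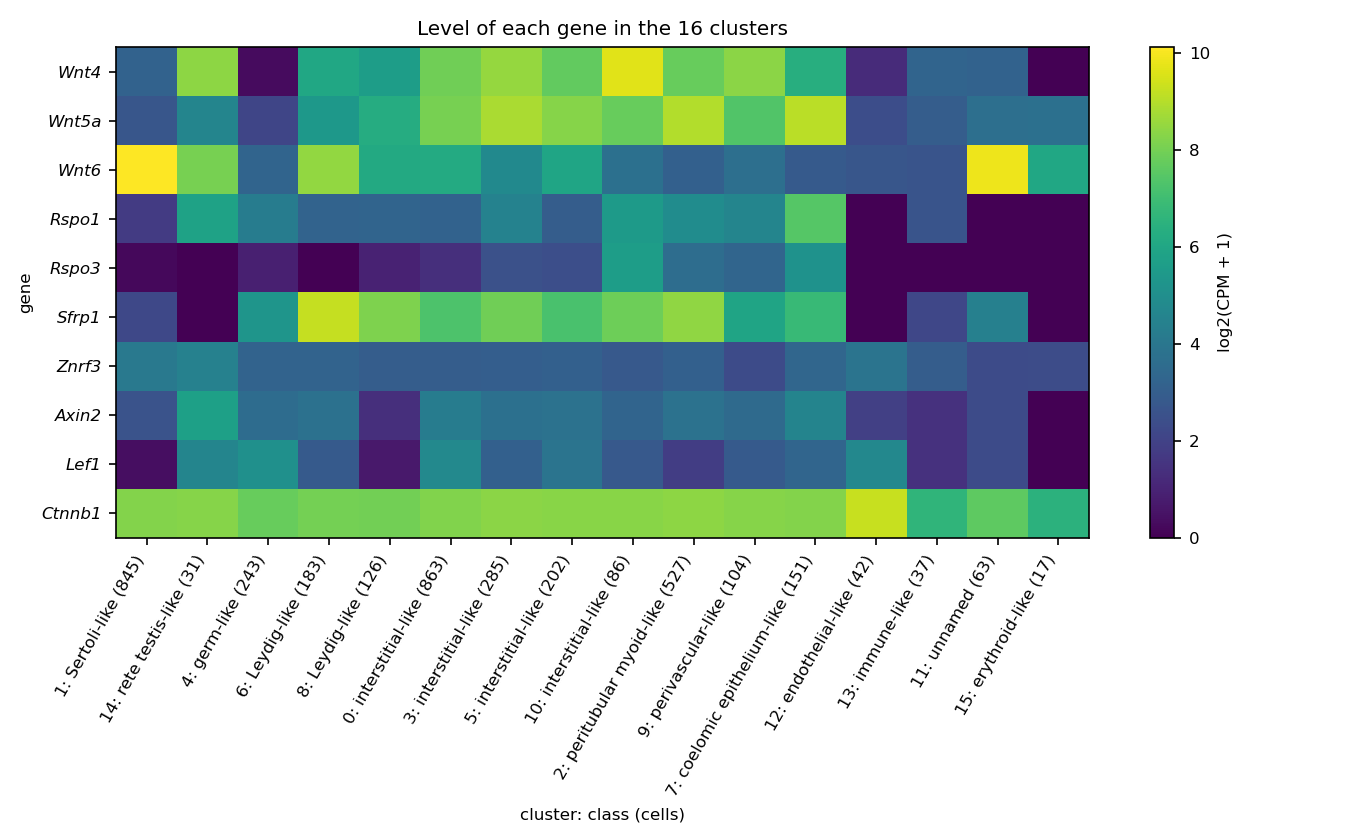
Level of the 10 genes (rows) in the 16 clusters (columns, with class and number of cells), as log2(CPM + 1) by colour. The clusters of the interstitial-like class differ in *Wnt4*, from 207 to 815 CPM, and those of the Leydig-like class in *Wnt6*, from 70.7 to 355 CPM.

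*Rspo1* (ENSMUSG00000028871; chromosome 4, 124986430 to 125009099) was a gene of the surface epithelium. Coelomic epithelium-like cells, 3.97% of the cells, held 43.1% of its 1162 UMIs, at 176 CPM (161 to 192). Rete testis-like cells followed with 55.9 CPM (35.8 to 83.2), then peritubular myoid-like with 29.3 CPM (25.4 to 33.6), perivascular-like with 23.1 CPM (15.5 to 33.2), germ-like with 17.9 CPM (15.1 to 20.9) and interstitial-like cells with 12.2 CPM (10.4 to 14.2). The first 3 were apart, and the intervals of peritubular myoid-like, perivascular-like and germ-like cells overlapped from each to the next. In Sertoli-like cells it was 2.43 CPM (1.65 to 3.45) and in endothelial-like cells 0 of 716213 UMIs. As read, 44.0% of germ-like and 10.0% of interstitial-like cells had an *Rspo1* UMI, but at 5000 UMIs the shares were 8.67% and 5.45%, at median depths of 35920 and 9234 UMIs. The share in coelomic epithelium-like cells was 83.4% as read and 52.6% at 5000 UMIs, with 2.66% in immune-like and 0.946% in Sertoli-like cells. In immune-like cells this comes from 3 UMIs in 3 of 37 cells.

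*Rspo3* (ENSMUSG00000019880; chromosome 10, 29452416 to 29535867, minus strand) had the fewest UMIs of the 10 genes, 275 in all. It was also highest in coelomic epithelium-like cells, with 34.7 CPM (28.2 to 42.3), and lower in peritubular myoid-like (11.2 CPM, 8.81 to 13.9), perivascular-like (8.77 CPM, 4.38 to 15.7) and interstitial-like cells (5.36 CPM, 4.22 to 6.71). The highest count in a perivascular-like cell was 6 of the 11 *Rspo3* UMIs of that class. By cluster the small interstitial-like cluster of 86 cells had 49.1 CPM (35.1 to 66.9), an interval that overlaps that of the coelomic epithelium-like cells, against 1.57 to 4.65 CPM in the other 3 interstitial-like clusters. That cluster also had the highest *Rspo1* of the interstitial-like class, 44.2 CPM (30.9 to 61.2). No *Rspo3* UMI was seen in the 42 endothelial-like, 37 immune-like and 31 rete testis-like cells, where 3 counts would be shares of 7.14%, 8.11% and 9.68%, a limit on cells with a captured UMI and not on cells that express the gene, and 2 UMIs were seen in 845 Sertoli-like cells.

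*Sfrp1* (ENSMUSG00000031548; chromosome 8, 23411502 to 23449632) encodes a secreted Frizzled-related protein that binds WNT ligands outside the cell. It was highest in Leydig-like cells with 424 CPM (407 to 441), followed by peritubular myoid-like (343 CPM, 329 to 357), interstitial-like (174 CPM, 167 to 181), coelomic epithelium-like (111 CPM, 99.3 to 124), perivascular-like (59.8 CPM, 47.0 to 75.0) and germ-like cells (38.0 CPM, 33.9 to 42.4), all apart by their intervals. The log2 ratio of Leydig-like to peritubular myoid-like cells (CPM + 5) was 0.30 and moved with the processing. It was 0.10 with an outlier filter at 5 deviations, 0.11 with no outlier filter, 0.39 at resolution 0.4 and 0.11 at resolution 1.2. The Leydig-like cluster rich in *Wnt6* had 599 CPM (570 to 631) of *Sfrp1* and the other 284 CPM (265 to 303). In the Leydig-like class 231 of 309 cells (74.8%) had UMIs of both *Sfrp1* and *Wnt6*. Counted separately, *Sfrp1* was seen in 299 and *Wnt6* in 238 of these cells. Whether they met more often than these separate counts imply was not tested. Sertoli-like cells had 3.61 CPM (2.64 to 4.81), with overlap to the 3.47 CPM of immune-like cells, and rete testis-like and endothelial-like cells had none among 429420 and 716213 UMIs. The share at 5000 UMIs was 81.4% in Leydig-like, 74.9% in peritubular myoid-like, 17.7% in germ-like, 1.65% in Sertoli-like and 1.42% in immune-like cells. The immune-like value rests on 2 UMIs in 1 of 37 cells.

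**Figure D3:**
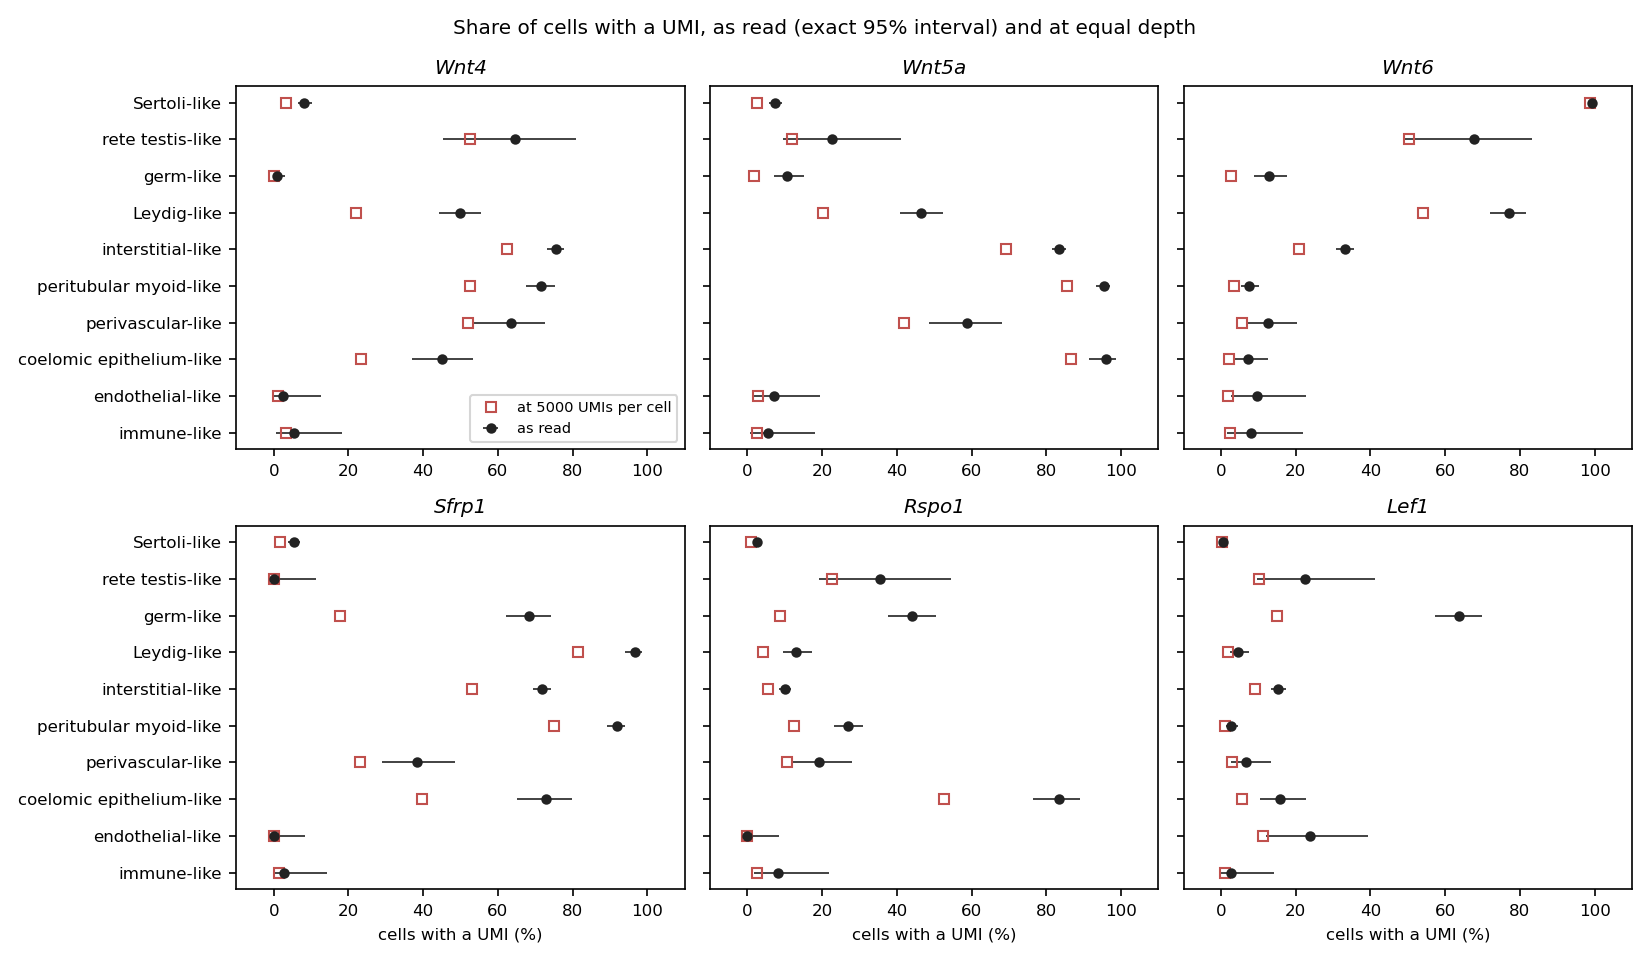
Share of cells with a UMI of 6 of the genes in the 10 classes, in percent. Filled points give the share as read with its exact binomial 95% interval, open squares the expected share with every cell thinned to 5000 UMIs and shallower cells left out. In Sertoli-like cells *Wnt6* stays at 98.8% at equal depth, and the germ-like share of *Lef1* goes from 63.8% to 15.0%.

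*Znrf3* (ENSMUSG00000041961; chromosome 11, 5276324 to 5444847, minus strand), whose product removes Frizzled receptors and which R-spondins counter, was low in all classes. Its levels ran from 3.99 CPM (1.29 to 9.31) in perivascular-like to 21.0 CPM (9.58 to 39.8) in rete testis-like cells, and each class overlapped the next in order. Sertoli-like cells had 16.2 CPM (14.0 to 18.5), above the 7.12 CPM (5.80 to 8.66) of interstitial-like and the 8.40 CPM (6.56 to 10.6) of germ-like cells by intervals that do not overlap. Sertoli-like cells held 38.9% of the 529 UMIs of *Znrf3*.

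*Axin2* (ENSMUSG00000000142; chromosome 11, 108920349 to 108950783) encodes a scaffold of the complex that marks beta-catenin for destruction, and is itself switched on by canonical WNT signaling in many tissues. Rete testis-like cells had the highest level, 53.6 CPM (33.9 to 80.4), from 23 UMIs in 16 of 31 cells. Coelomic epithelium-like cells followed with 22.5 CPM (17.3 to 28.7), and interstitial-like (15.6 CPM, 13.6 to 17.8), peritubular myoid-like (13.0 CPM, 10.5 to 16.0), germ-like (10.9 CPM, 8.77 to 13.3) and perivascular-like cells (10.4 CPM, 5.52 to 17.7) overlapped from each to the next. Sertoli-like cells had 5.02 CPM (3.86 to 6.41), an interval below those of interstitial-like, peritubular myoid-like and germ-like cells. It overlapped those of perivascular-like and Leydig-like cells (6.55 CPM, 4.61 to 9.03 in the latter). The Leydig-like clusters differed, with 12.8 CPM (8.73 to 18.0) in the *Wnt6*-rich one and 1.59 CPM (0.517 to 3.71) in the other. At 5000 UMIs, 23.7% of rete testis-like, 9.97% of coelomic epithelium-like, 7.17% of interstitial-like, 2.53% of Sertoli-like and 0.825% of immune-like cells had an *Axin2* UMI. The immune-like share comes from 1 UMI.

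The rete testis-like class rests on 31 cells and on a marker list of 5 genes. *Pax8* was seen in 24 of the cells and *Aldh1a3* in 19. The Sertoli list of 11 markers summed to 2329 CPM in this class, with 1 marker at 0, against 9516 CPM in Sertoli-like cells, while the interstitial list summed to 214 CPM against 3132 CPM in interstitial-like cells. In the 24 cells with a *Pax8* UMI, *Axin2* had 65.6 CPM, *Wnt4* 280.5 CPM and *Wnt6* 197 CPM. In the 7 cells without one, they had 10.6 CPM (1 UMI), 520 CPM and 499 CPM. *Rspo1* was seen in 8 of the 24 and in 3 of the 7 cells. The part of doublets or of other cell types in these values was not tested.

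*Lef1* (ENSMUSG00000027985; chromosome 3, 131110471 to 131224356), a nuclear partner of beta-catenin and also a target gene, was found in germ-like cells at 32.4 CPM (28.7 to 36.5), in endothelial-like cells at 25.1 CPM (14.9 to 39.7), in rete testis-like cells at 23.3 CPM (11.2 to 42.8) and in interstitial-like cells at 19.5 CPM (17.3 to 22.0), each overlapping the next, though germ-like and interstitial-like cells were apart. Sertoli-like cells had 4 UMIs in 845 cells, 0.314 CPM (0.0855 to 0.803), the lowest of the 10 classes. A UMI was seen in 63.8% of germ-like cells as read and in 15.0% at 5000 UMIs, with 8.99% in interstitial-like, 11.3% in endothelial-like and 0.982% in immune-like cells. In immune-like cells 1 UMI was read. Among the interstitial-like clusters, that of 863 cells had 26.1 CPM (22.7 to 29.8), above the 13.9 CPM (9.85 to 19.1) of the dividing cluster and the 6.14 and 7.61 CPM of the other clusters. *Lef1* was therefore highest in the interstitial-like cluster in which *Axin2* was highest as well, 18.0 CPM (15.2 to 21.1), although for *Axin2* the intervals of the 4 clusters overlapped. Of the 1436 interstitial-like cells, 36 had UMIs of both genes. Counted separately, *Axin2* was seen in 194 and *Lef1* in 220 of these cells.

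*Ctnnb1* (ENSMUSG00000006932; chromosome 9, 120929216 to 120960507) was read in all classes. It lay between 302 and 333 CPM in 6 classes whose intervals overlapped from each to the next, peritubular myoid-like, perivascular-like, interstitial-like, rete testis-like, Sertoli-like and coelomic epithelium-like. The level in endothelial-like cells, where beta-catenin also joins cell contacts, was 609 CPM (553 to 669), 1.81 times the next with 5 CPM added to both. Leydig-like cells had 251 CPM (238 to 265), germ-like 217 CPM (208 to 228) and immune-like cells 97.3 CPM (73.5 to 126). The gene *Ulk4* overlaps exons of *Ctnnb1* on the opposite strand, and it had 205 UMIs in all cells against 15734 of *Ctnnb1*.

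A gene was said to lead in a class when its CPM there, with 5 CPM added, was at least 2 times that of the next class and both intervals were apart, over the 10 named classes of at least 30 cells. By this rule 4 of the 10 genes led, *Wnt6* in Sertoli-like, *Rspo1* and *Rspo3* in coelomic epithelium-like and *Axin2* in rete testis-like cells (4.16, 2.97, 2.46 and 2.13 times the next class). Among the 12220 genes with at least 100 UMIs, 14.5% led in a class. With these settings the share of these 10 genes was above the background of the library, on a list of few genes that were chosen with results known. *Axin2* was near the limit and rests on the rete testis-like class. With classes of at least 100 cells only, which leaves that class out, the count was 3, against 15.1% of all genes. *Axin2* also missed the limit with no outlier filter (a log2 ratio of 0.93) and with no doublets removed (0.96). The count was 3 in both, against 15.16% and 15.05% of all genes. With each cell classed by itself, without clusters, *Wnt6* and *Rspo1* led, 2 genes in all, against 14.0% of all genes. That share of the 10 genes was nearer to the background. The span from the lowest to the highest class had a median of 4.15 on the log2 scale over the 10 genes (CPM + 5), against 1.74 over all genes tested.

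Between both largest classes, 7 of the 10 genes were at least 2 times higher in interstitial-like than in Sertoli-like cells with intervals apart, against 9.89% of all genes tested, and 1 of 10, *Wnt6*, was higher in Sertoli-like cells, against 10.4% of all. The log2 ratio of interstitial-like to Sertoli-like (CPM + 5) was 4.86 for *Wnt5a*, 4.49 for *Wnt4*, 4.38 for *Sfrp1* and 2.21 for *Lef1*. It was close to the limit of 1 for *Rspo1* (1.21), *Axin2* (1.04) and *Rspo3* (1.01), and -4.13 for *Wnt6*. *Znrf3* (-0.80) and *Ctnnb1* (0.02) were counted in neither direction. With doublets removed at double the expected rate 4 genes were left as higher in interstitial-like cells, *Wnt4*, *Wnt5a*, *Sfrp1* and *Lef1*, against 9.71% of all genes. Without the interstitial-like cluster of 86 cells *Rspo3* was lost and 6 were left, against 9.75% of all genes. The median ratio was 1.13 over the 10 genes and -0.01 over all genes tested. Sertoli-like and interstitial-like cells differed in median depth, 14340 and 9234 UMIs. CPM and intervals rest on the UMIs of the gene and of the whole class (12754330 and 14179522 UMIs in all), not on the depth per cell.

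**Figure D4:**
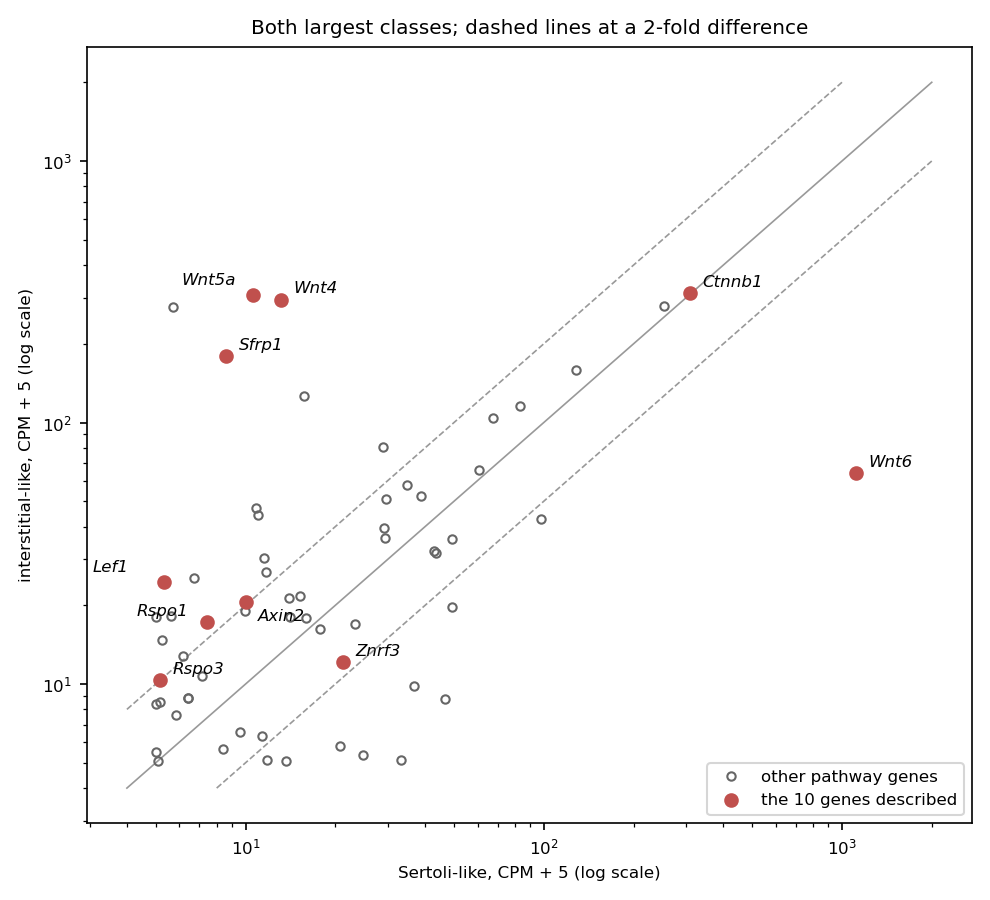
Level in interstitial-like (vertical) against Sertoli-like cells (horizontal), each as CPM + 5 on a log axis, for the 10 genes (filled) and the 52 other pathway genes with at least 100 UMIs (open). The solid line marks equal levels and the dashed lines a 2-fold difference. *Wnt4*, *Wnt5a* and *Sfrp1* lie far above the lines and *Wnt6* far below.

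Other genes of the pathway, 76 in the list, were counted in the same way. Of these, 52 had at least 100 UMIs, 9 led in a class, 12 were higher in interstitial-like and 9 in Sertoli-like cells, where the shares over all genes tested were 14.5%, 9.89% and 10.4%. The share that led was thus close to the background. Of the 16 other WNT ligand genes only 3 passed 100 UMIs, a count of captured tags that does not rank the genes by level. *Wnt5b*, the 1 of them with over 1000 UMIs, was also highest in coelomic epithelium-like cells, with 54.4 CPM (46.1 to 63.6) in coelomic epithelium-like, 41.0 CPM (36.4 to 46.1) in peritubular myoid-like, 39.4 CPM (36.1 to 42.8) in interstitial-like and 6.04 CPM (4.76 to 7.55) in Sertoli-like cells. Unlike *Wnt5a*, it was low in Leydig-like cells (3.19 CPM, 1.89 to 5.04), and by cluster it was highest in the interstitial-like one of 86 cells (67.5 CPM, 50.9 to 87.9), with an interval that overlaps that of the coelomic epithelium-like cells. *Wls*, which carries WNT proteins to the cell surface, was found at 62.6 CPM (58.3 to 67.1) in Sertoli-like and 99.0 CPM (93.9 to 104) in interstitial-like cells, and at 1.54 CPM (0.819 to 2.63) in germ-like cells.

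The receptor genes were read in both compartments. *Fzd2* was higher in interstitial-like (121 CPM, 115 to 127) and peritubular myoid-like cells (130.2 CPM, 122 to 139) than in Sertoli-like cells (10.7 CPM, 9.02 to 12.7), and *Fzd3* the reverse, with 44.4 CPM (40.8 to 48.2) in Sertoli-like and 14.7 CPM (12.8 to 16.9) in interstitial-like cells. *Fzd3* led in rete testis-like cells at 135 CPM (103 to 175). *Lgr4*, a receptor of R-spondins, had 97.0 CPM (89.8 to 105) in peritubular myoid-like, 75.7 CPM (71.2 to 80.3) in interstitial-like and 23.8 CPM (21.2 to 26.7) in Sertoli-like cells. The co-receptor *Lrp6* was nearly even between Sertoli-like (55.7 CPM, 51.7 to 59.9) and interstitial-like cells (60.9 CPM, 56.9 to 65.1), and *Ryk*, a receptor for WNT5A among others, had 77.9 CPM (73.2 to 82.9) and 110.4 CPM (105 to 116). Of the 16 receptor genes tested, 4 were higher in interstitial-like and 3 in Sertoli-like cells, against 9.89% and 10.4% of all genes tested.

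Among the secreted inhibitors, 4 of 7 tested were higher in interstitial-like and 2 in Sertoli-like cells. Over all genes tested the shares were 9.89% and 10.4%, which also stand beside the counts of the other roles below. *Sostdc1*, which binds LRP co-receptors and also BMPs, had 271 CPM (262 to 280) in interstitial-like, 177 CPM (167 to 187) in peritubular myoid-like and 0.706 CPM (0.323 to 1.34) in Sertoli-like cells. Of the Leydig-like clusters, the *Wnt6*-rich one had 86.6 CPM (75.4 to 98.9) of *Sostdc1* and the other 1 UMI. The interstitial list summed to 805 CPM in the first and 134 CPM in the second. The part of interstitial RNA in the *Sostdc1* difference was not tested. Of the 9 genes of the destruction complex and relay, none led in a class, 1, *Apc*, was higher in Sertoli-like cells (92.5 CPM, 87.3 to 97.9, against 37.7 CPM, 34.6 to 41.1) and none in interstitial-like cells. *Axin1*, *Gsk3a*, *Gsk3b*, *Csnk1a1*, *Btrc*, *Dvl2* and *Dvl3* differed by less than 2 times between both classes. Of the 7 other nuclear factors, 2 were higher in interstitial-like and 1 in Sertoli-like cells. *Tcf7l1*, which mostly represses target genes, had 42.2 CPM (38.9 to 45.7) and 5.88 CPM (4.63 to 7.37), in that order, while *Tcf7l2* (52.8 and 29.8 CPM), *Bcl9* (47.5 and 33.9 CPM) and *Bcl9l* (46.0 and 24.6 CPM) differed by less than 2 times. Of the 8 other target genes, 5 led in a class, each in a different one, against 14.5% of all genes tested. *Nkd1*, an inhibitor induced by the pathway, had its highest levels where *Rspo1* and *Axin2* did, 85.6 CPM (75.2 to 97.0) in coelomic epithelium-like and 83.8 CPM (58.7 to 116) in rete testis-like cells, with 55.1 CPM (49.7 to 60.9) in peritubular myoid-like and 1.72 CPM (1.08 to 2.61) in Sertoli-like cells. *Ccnd1*, a cyclin that responds to many signals, led in endothelial-like cells at 282 CPM (244.5 to 324).

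**Figure D5:**
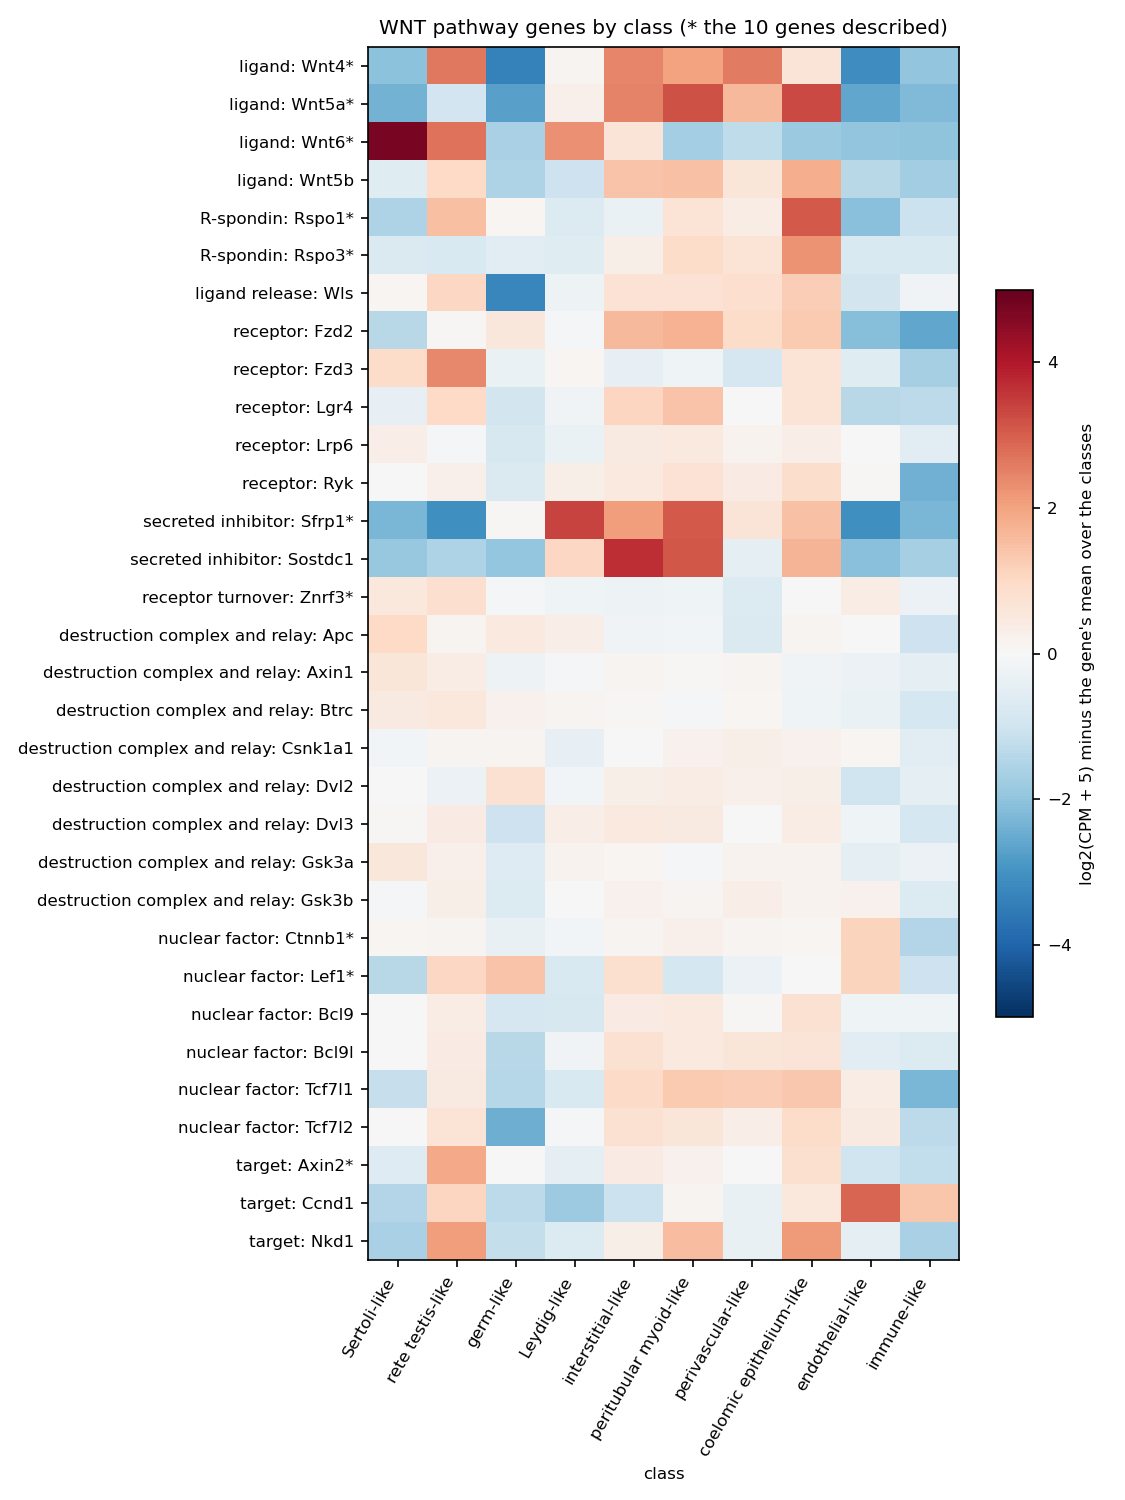
The 10 genes (marked *) and the 22 other pathway genes with at least 1000 UMIs (rows, grouped by role) in the 10 classes (columns). Colour gives log2(CPM + 5) minus the mean of the gene over the 10 classes. The ligands *Wnt4*, *Wnt5a* and *Wnt6* and the secreted inhibitors *Sfrp1* and *Sostdc1* differ most between classes, and the ligand *Wnt5b* differs less. The genes of the destruction complex and *Ctnnb1* stay near 0 in most classes.

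The genes whose levels over the 16 clusters were most like those of each gene were ranked by Pearson's r of log2(CPM + 1), among genes outside the pathway with at least 1000 UMIs. All clusters share 1 library, and the values are a description. For *Wnt4* they were *Loxl1* (0.95), *Pde1a* (0.95) and *Col6a2* (0.95), for *Wnt5a* *Hoxd10*, *Boc* and *B3gnt9* (0.95 each), and for *Wnt6* *Mmd2* (0.94), *Me1* (0.90) and *Aldh1a1* (0.90). *Rspo1* was most like *Palld*, *Sulf1* and *Slc38a4* (0.85 to 0.86), *Rspo3* like *Gas1* (0.88), *Meis2* (0.86) and *Alcam* (0.85), and *Sfrp1* like *Fkbp11* (0.92), *Nkain4* (0.91) and *Tmem45a* (0.89). *Znrf3* was most like *Nacc1*, *Gcn1* and *Mpdu1* (0.80 to 0.85), and *Lef1* like *Nr2f6*, *Chchd6* and *Flywch1* (0.80 to 0.81). *Axin2* was most like *Cand1*, *Dipk1b* and *Chd6* (0.89 to 0.90), and *Ctnnb1* like *4930402H24Rik* (0.97), *Ptprg* (0.95) and *Zfp532* (0.94).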

How the data were processed

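The deposited values are UMI counts for each gene in each barcode, not normalized. Cell Ranger produced them, on mm10 joined to a YFP sequence by the account of the methods. The matrix header names software version 3.1.0 and the submitters' processing notes 3.0.2 and 3.1.0, whereas the methods name a later version. Barcodes with at least 200 genes were kept (5049 of 5421). Doublets were scored among simulated neighbours and the expected 4.04% removed. Outlier cells, 1040 in number, were removed as well. Their UMIs or genes (both logged) or ribosomal share lay over 3 median absolute deviations from the median, or their mitochondrial share above it by as much. At 5 deviations 4354 cells were kept. Sertoli-like cells then numbered 1197 in place of 845 and immune-like cells 97 in place of 37. Interstitial-like (1370 in place of 1436) and rete testis-like cells (23 in place of 31) were fewer. The 3805 cells left held 2284 to 53548 UMIs. Cells were clustered in Seurat 5.3.0 after normalization by sctransform 0.4.2, on R 4.3.3 (3000 variable genes without WNT pathway genes, 30 components, resolution 0.8, with the cell cycle and mitochondrial reads regressed out). A class name needed a mean log2 marker ratio of at least 1 and 3 markers in at least 25% of cells, a limit taken from earlier work in which the clusters had been seen. The mesonephric epithelium list named no cluster.

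Counts were summed per class with Python 3.11.15, numpy 2.4.6, scipy 1.17.1 and pandas 2.3.3. The 95% intervals are exact (Poisson for CPM, Clopper-Pearson for shares) and hold no error beyond that of counting. Free RNA was not corrected. Thinned shares are exact expectations. The members and lists were chosen with earlier results of these data known. Genes were named if they were among the 10, if they were other pathway genes with at least 1000 UMIs, or if they were among the 3 most like a member over the clusters, and the others were counted. Promoters came from RefSeq (GRCm38.p6) and gene positions from GENCODE on GRCm38, the assembly also called mm10. The calls across genes and the thinning were tested on simulated data. For the calls these were Poisson counts, the model that the intervals assume. That test could not show how the calls behave where UMIs gather in few cells. Other outlier limits, doublet rates, resolutions, normalization, gene choice and class assignment were tried as alternatives.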

Additional observations from a re-analysis of the deposited data

How the results depend on the processing

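The control was 1 pooled library, so no replicate could be left out, no paired fit exists, and the intervals hold counting error only. *Wnt6*, *Rspo1* and *Rspo3* led in a class under the alternatives tried, except that *Rspo3* did not with each cell classed by itself. There 2 genes led in place of 4, against 14.0% of all genes. The rete testis-like class was absent from the order with an outlier filter at 5 deviations, log normalization, doublets removed at double rate or classes of at least 100 cells. In those settings *Wnt6* and *Rspo1* were not set against it. Genes higher in interstitial-like cells numbered 4 in place of 7 with doublets removed at double rate, against 9.71% of all genes. Otherwise they numbered 5 to 7, against 9.25 to 17.7% of all genes. Genes higher in Sertoli-like cells numbered 2 in place of 1 with 1 CPM added or a limit of 1.5 times, *Znrf3* being the second. The shares of all genes were 14.2% and 18.9%, in that order, so 2 of 10 was close to them. Leaving out the smallest interstitial-like cluster was chosen after seeing the data. It gave 6 genes higher in interstitial-like cells, against 9.75% of all genes. Of 90 log2 ratios of the highest to the next class, 65 moved by less than their counting interval, 10 moved by more, and 15 had no value because no rete testis-like class of at least 30 cells was found, with an outlier filter at 5 deviations (23 cells), log normalization (25 cells) or doublets removed at double rate (no cluster named so). With each cell classed by itself 122 cells were rete testis-like, and there *Wnt4* was lower than in perivascular-like cells (log2 ratio -0.44) and the *Axin2* ratio to coelomic epithelium-like cells was 0.11. At resolution 0.4, where perivascular-like cells numbered 58, the *Wnt4* ratio was 0.90, against 0.04 as reported. The cause was not tested. Thinning to 3000 in place of 5000 UMIs lowers shares by its construction, to 94.7% for *Wnt6* in Sertoli-like, 74.5% and 38.2% for *Wnt5a* and *Rspo1* in coelomic epithelium-like, 68.1% for *Sfrp1* in Leydig-like and 9.20% for *Lef1* in germ-like cells.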

Other observations

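Some pathway genes below 1000 UMIs had a narrow distribution, and these were chosen after their values were seen. *Wnt3*, a canonical WNT ligand, had 248 of its 251 UMIs in germ-like cells, at 29.3 CPM (exact Poisson 95% interval 25.8 to 33.2), and was seen in 141 of 243 of them. The R-spondin gene *Rspo4* was read in the same class with 92 of 93 UMIs (10.9 CPM, 8.77 to 13.3). *Lgr5*, a receptor of R-spondins, had 359 of 390 UMIs in Sertoli-like cells (28.1 CPM, 25.3 to 31.2), where *Lgr4* was read as well.

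Of the 8 other target genes, 2, *Sp5* and *Tnfrsf19*, were highest in rete testis-like cells, where *Axin2* was highest too. *Tnfrsf19* did not lead there (23.3 CPM, 1.39 times the next class with 5 CPM added to both). The others were highest elsewhere, *Nkd2* in Sertoli-like, *Ccnd1* and *Apcdd1* in endothelial-like, *Myc* in immune-like, and *Fst* and *Nkd1* in coelomic epithelium-like cells. *Sp5* had 107 CPM (78.4 to 143) in 18 of 31 cells, against 16.8 CPM (14.1 to 19.8) in germ-like and 8.70 CPM (7.16 to 10.5) in Sertoli-like cells. *Notum*, of the list of secreted inhibitors and below the minimum of 100 UMIs, which encodes an enzyme that strips the lipid from WNT ligands, had 44.2 CPM (26.6 to 69.1) in 9 of 31 cells and at most 1.42 CPM in the other classes. The rete testis-like class held 19 of the 49 *Notum* UMIs. The rete testis-like values of *Axin2*, *Sp5* and *Notum* rest on the same 31 cells, and the part of other cell types in that cluster was not tested.

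Barcodes with fewer than 200 genes numbered 372, with 46.8% of their UMIs from hemoglobin and 49.2% from mitochondrial genes. The CPM below are taken over all of these UMIs, which keeps them small. They therefore do not measure how much free RNA of the 10 genes was present. Their 1409901 UMIs held 10 of *Wnt6* (7.09 CPM, 3.40 to 13.0), 5 of *Wnt5a* (3.55 CPM, 1.15 to 8.28) and none of *Wnt4*, *Rspo3*, *Sfrp1* or *Lef1*, for which 3 counts would be 2.13 CPM.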
